A study of Caenorhabditis elegans with 2 samples.

Results

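The genes described here encode chaperones and heat shock proteins of Caenorhabditis elegans, and the measurement is binding of the DM-domain transcription factor DMD-9 near their 5' ends. They were chosen by name: every protein-coding gene of the Ensembl annotation of the WBcel235 assembly whose symbol starts with hsp-, dnj-, cct- or pfd-. This gave 65 of 19985 protein-coding genes, made up of 22 hsp, 29 dnj, 8 cct and 6 pfd genes. Binding was measured by chromatin immunoprecipitation followed by sequencing (ChIP-seq) in whole L4 larvae grown for 48 hours after synchronisation by bleaching and L1 starvation. The worms, strain RJP5357, carried the allele rp169(dmd-9::GFP::AID::TEV::3xFLAG) on chromosome IV, a CRISPR insertion that tags the endogenous dmd-9 gene with GFP, a degron, a protease site and FLAG. Sonicated chromatin was precipitated with an antibody to GFP. There was 1 group of 2 biological replicates and no second strain, stage or treatment, so no condition could be compared. Whole animals were used, so signal from any tissue is mixed with that of all others.

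Chaperones bind unfolded or partly folded proteins and help them to reach or keep their native state. HSP70 proteins work in cycles of ATP binding and hydrolysis, which J-domain proteins (dnj genes) start and nucleotide exchange factors such as HSP110 complete. HSP90 receives clients from HSP70, the ring-shaped TRiC/CCT chaperonin (cct genes) folds actin and tubulin among other proteins, and prefoldin (pfd genes) delivers newly made chains to it. Small heat shock proteins hold unfolding proteins without ATP. Many of these genes are induced by heat shock factor HSF-1, which binds inverted repeats of the triplet GAA called heat shock elements, while others are transcribed at high levels without stress.

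The authors deposited peak lists in which each peak has a summit, a signal (the caller's own strength value), a q value and, in the ranked lists, a global irreproducible discovery rate (IDR). The list of 1379 peaks called on the pooled replicates and thresholded at a global IDR of 0.01 is called the joint list. A conservative list of 1346 peaks came from the replicates against each other, and replicates 1 and 2 alone had thresholded lists of 569 and 545 peaks. The ranked lists, before the threshold, held 112594 pooled peaks, 58574 for replicate 1 and 61188 for replicate 2, and most of those peaks did not pass. A gene was counted as having a peak where a summit lay from 1000 bp upstream to 200 bp downstream of its outermost annotated 5' end, and its strongest peak was used. Signals are not scaled between lists. At the chaperone genes with a joint peak, the replicate signals summed to 0.975 to 1.04 times the pooled value. The sequencing depth of each library is unknown.

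A joint peak lay in the window of 13 of the 65 chaperone genes, or 20% (exact 95% interval 11.1 to 31.8%). Over all protein-coding genes the share was 3.88% (775 of 19985), and among the genes that are not chaperones it was 3.83% (762 of 19920). The 13 genes were hsp-1, hsp-3, hsp-60 and hsp-110 among the heat shock proteins, dnj-9, dnj-12, dnj-13, dnj-14, dnj-19 and dnj-28 among the J-domain proteins, the chaperonin subunit gene cct-8, and the prefoldin subunit genes pfd-3 and pfd-6. Each had its own peak. Their median joint signal was 136, against 101 for all genes with a joint peak (quartiles 78.0 and 147). In the conservative list 13 chaperone genes had a peak too (3.91% of all genes), with hsp-90 in and pfd-6 out. With replicate 1 alone there were 9 (2.06% of all genes) and with replicate 2 alone 8 (2.01% of all genes). At a global IDR of 0.001 or under, 8 chaperone genes had a joint peak (1.77% of all genes).

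The 8 strongest chaperone peaks were in all of the joint, conservative and single-replicate lists. That is 61.5% of the 13 genes, compared with 38.6% (299 of 775) of all genes with a joint peak. At dnj-19, dnj-12, pfd-3 and pfd-6 the peak was in neither replicate's own thresholded list, as for 36.4% (282 of 775) of all genes with a joint peak. For all 13 genes, the strongest peak of each replicate's ranked list in the same window overlapped the pooled peak. The ratio of the signal in replicate 2 to that in replicate 1 ran from 0.757 to 1.41 with a median of 0.965. The median over 765 genes with a joint peak was 1.08 (quartiles 0.879 and 1.37). The ratio at dnj-19 lay above that upper quartile, and those at dnj-9, hsp-3, dnj-13, dnj-12 and dnj-14 below the lower.

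**Figure D1:**
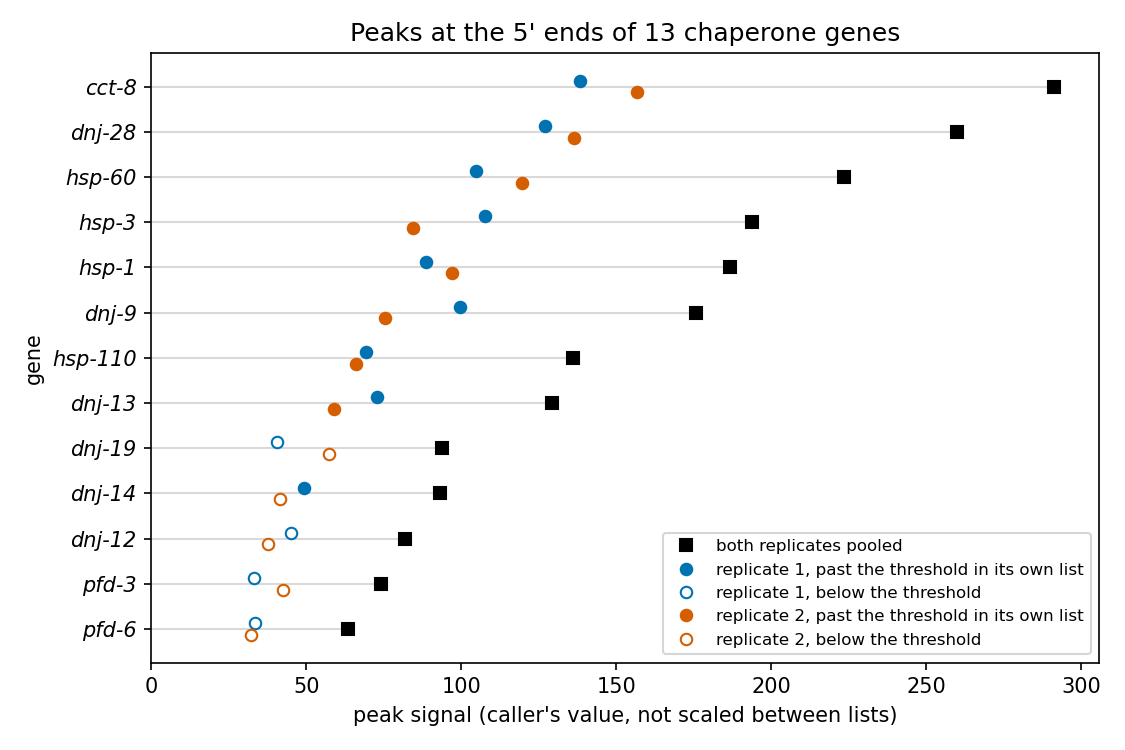
Signal of the strongest peak at each of the 13 chaperone genes with a joint peak, in the pooled joint list and in the ranked lists of replicates 1 and 2 (horizontal axis, caller's signal, linear). Genes are ordered by joint signal from cct-8 at 291 to pfd-6 at 63.4; the replicate points of a gene lie close together beside the distance between the strong and weak genes.

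In the cytosolic HSP70 system, joint peaks lay at the constitutive HSP70 gene and at its exchange factor. The gene hsp-1 (WBGene00002005), which encodes the constitutive cytosolic HSP70 (HSC70), had a signal of 88.7 in replicate 1 and 97.2 in replicate 2. Its joint signal was 187, rank 110 of the joint list, with the summit 389 bp upstream of the 5' end in a 284-bp peak at chrIV:17278428-17278711. The heat-inducible HSP70 gene hsp-70 had no thresholded peak, and its strongest pooled ranked signal was 19.3, below the median of 24.1 over all protein-coding genes. At hsp-110 (WBGene00016250), which encodes the HSP110 nucleotide exchange factor, the replicate signals were 69.2 and 66.2. The joint signal there was 136 at chrIII:8447003-8447286, with the summit 236 bp upstream of hsp-110 and 208 bp upstream of the divergent gene rpn-3, a subunit of the proteasome's regulatory particle. The replicate 2 signal was 1.10 times that of replicate 1 at hsp-1 and 0.957 times at hsp-110, so the replicates were close at both.

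At the HSP90 gene the stronger peak lay inside the gene. In its window hsp-90, the cytosolic HSP90 gene, had a pooled ranked signal of 63.3 at 194 bp downstream of the 5' end, with a global IDR in the pooled ranked list of 0.0195, above the threshold. In replicate 1 the signal was 40.8, and replicate 2 had no ranked peak in the window. A far stronger joint peak lay outside the window, at chrV:14685680-14685807, in an intron of hsp-90 and 839 bp downstream of the outermost 5' end. Its signal was 328, rank 19 of the joint list, with 114.7 in replicate 1 and 212 in replicate 2, and it was in all lists. This summit lay 403 bp upstream of another annotated hsp-90 transcript start and also within the window of the gene C47E8.4. Counting the 5' end of any transcript made hsp-90 the 14th chaperone gene with a joint peak, where 4.22% of all genes had one. The intronic peak was stronger than any of the 13 peaks in chaperone windows, and it was chosen for mention after its values were seen.

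Of the members assigned to the endoplasmic reticulum and to mitochondria, 1 gene each had a joint peak. Chaperones of these compartments whose symbols have other prefixes are counted separately further below. The genes hsp-3 and hsp-4 encode the BiP HSP70 proteins of the endoplasmic reticulum. At hsp-3 (WBGene00002007) the replicate signals were 108 and 84.4, and the joint signal was 194 at chrX:6092057-6092340, with the summit 75 bp upstream. At hsp-4 the pooled ranked signal was 68.1 with a global IDR of 0.0193, the highest signal of any chaperone gene without a joint peak, and the replicates had 26.7 and 42.0 in the window. The replicate 1 value there is of a peak that did not overlap the pooled one. The hsp-3 signal thus passed the authors' threshold and the hsp-4 signal did not, while the difference between them was not tested. The mitochondrial chaperonin gene hsp-60 (WBGene00002025) had 105 in replicate 1 and 120 in replicate 2, and its joint signal was 223 at chrIII:1618983-1619266. The mitochondrial HSP70 gene hsp-6 had 47.5 in the pooled ranked list (global IDR 0.191), and the mitochondrial HSP90 gene hsp-75 had 17.5. By compartment, a joint peak lay at 9 of 24 cytosolic genes (37.5%, exact 95% interval 18.8 to 59.4%). It lay at 1 of 7 endoplasmic reticulum genes (14.3%, 0.361 to 57.9%) and 1 of 6 mitochondrial genes (16.7%, 0.421 to 64.1%). Of the 15 genes with no assigned compartment 2 had one (13.3%, 1.66 to 40.5%), dnj-28 and dnj-9. Over all protein-coding genes the share was 3.88%, which lies within each of these intervals except the cytosolic one. The exact intervals of these groups overlap.

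The hsp-60 peak was shared with the gene of its partner protein. Its summit lay 617 bp upstream of hsp-60 and 196 bp upstream of the divergent gene Y22D7AL.10, a homologue of the HSP10 co-chaperonin that caps the HSP60 ring. A window reaching only 500 bp upstream therefore left hsp-60 out and 12 genes in.

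J-domain proteins, the co-chaperones that bring clients to HSP70 and stimulate its ATPase, were the largest family. Of the 29 genes 6 (20.7%, exact 95% interval 7.99 to 39.7%) had a joint peak, beside 3.88% of all protein-coding genes. The strongest was at dnj-28 (WBGene00001046), with 127 and 136 in the replicates and a joint signal of 260.0, rank 50, with the summit 126 bp upstream. That 147-bp peak had 19 partial copies elsewhere in the genome, the best 98.6% identical over 74 bp, so reads there may map to more than 1 place; how the authors treated such reads is not given in the sources used here. At dnj-9 (WBGene00001027) the replicates had 99.7 and 75.5, and the joint signal was 176 with the summit 246 bp upstream. At dnj-13 (WBGene00001031), a class B J-domain protein gene, the values were 72.8 and 58.8, and the joint signal was 129. The dnj-13 summit lay 188 bp upstream, inside an intron of the gene dhgd-1. No other of the 13 peaks had a copy at 90% identity over 50% of its length.

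The other J-domain genes with a joint peak were weaker. The cysteine string protein homologue dnj-14 (WBGene00001032), which acts at nerve terminals in other animals, had 49.3 and 41.5 in the replicates and a joint signal of 93.2, and its peak was also in replicate 1's own list. The class A genes dnj-19 (WBGene00001037) and dnj-12 (WBGene00001030) had joint signals of 93.8 and 82.0. The replicate values were 40.7 and 57.3 at dnj-19, which had the largest ratio between replicates of the 13 genes, and 45.2 and 37.8 at dnj-12. The dnj-19 summit was 427 bp upstream of dnj-19 and, by 31 bp, inside the 5' UTR of the divergent nuclear hormone receptor gene nhr-47. Among the 23 dnj genes without a joint peak, the strongest pooled ranked signals were 50.02 at dnj-21, a mitochondrial import J protein homologue, and 46.9 at dnj-11, while dnj-1, dnj-25 and dnj-26 had no pooled ranked peak.

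Of the cytosolic folding machines downstream of HSP70, TRiC/CCT had a joint peak at 1 of 8 subunit genes and prefoldin at 2 of 6. Over all protein-coding genes the share was 3.88%. Of the 8 genes for TRiC/CCT subunits, which the complex holds in equal numbers, cct-8 (WBGene00021934) alone had a joint peak (12.5%, exact 95% interval 0.316 to 52.7%). It was the strongest of all chaperone windows, with 138 in replicate 1, 157 in replicate 2 and a joint signal of 291, rank 32, at chrIV:1094308-1094427. The summit was 443 bp upstream of cct-8 and 178 bp upstream of the divergent gene Y55F3AR.2. The pooled ranked signal was 62.6 at cct-6 (global IDR 0.0117, just above the threshold), 54.9 at cct-7 (0.0195), 30.6 at cct-3, 16.9 at cct-2 and 4.41 at cct-4. The genes cct-1 and cct-5 had no pooled ranked peak. Genes of the same ring thus ranged from the highest value to none. The cct-3 window has a copy elsewhere in the genome, 96.5% identical over 650 bp.

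Prefoldin genes had weaker peaks. Of the 6, pfd-3 (WBGene00006889) and pfd-6 (WBGene00009004) had joint signals of 74.2 and 63.4 (33.3%, exact 95% interval 4.33 to 77.7%). The replicates had 33.3 and 42.5 at pfd-3 and 33.4 and 32.2 at pfd-6. Without a joint peak, pfd-4 had a pooled ranked signal of 67.3 (global IDR 0.0377), higher than at pfd-6 (0.00897), with 24.8 and 45.6 in the replicates. The replicates were thus closer at pfd-6 than at pfd-4. The value was 52.2 at pfd-1 and 30.4 at pfd-2, and pfd-5 had no pooled ranked peak. The joint peaks of pfd-3, pfd-6 and dnj-12 had q values of 0.197, 0.486 and 0.0906, above 0.05, as did 51.3% of all joint peaks.

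Small heat shock protein genes had no joint peak. The 13 genes gave 0 in the joint list, a share whose exact 95% interval reaches 24.7% and so includes the 3.88% of all protein-coding genes. For the larger hsp genes it was 4 of 9 (44.4%, interval 13.7 to 78.8%). The intervals overlap. The highest pooled ranked signal was 44.6 at hsp-43, followed by 36.7 at hsp-25. The divergent pair hsp-16.2 and hsp-16.41 shared a ranked peak of 36.4, with 22.7 and 22.8 in the replicates. Neither copy of hsp-16.1 or hsp-16.48, nor hsp-17, had a pooled ranked peak. The windows of both hsp-16.1 genes and both hsp-16.48 genes are 100% identical to another place over 1122 to 1201 bp, so absence of a peak there cannot be told apart from loss of reads that map to more than 1 place. Outside the windows, a joint peak of 83.5 with a q value of 0.0741 lay at chrV:9088920-9089203, between the inverted hsp-16.48 copies, past their 5' ends by 931 and 704 bp. Its replicate signals were 27.2 and 50.7, and it was in the conservative list but in neither replicate's own.

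**Figure D2:**
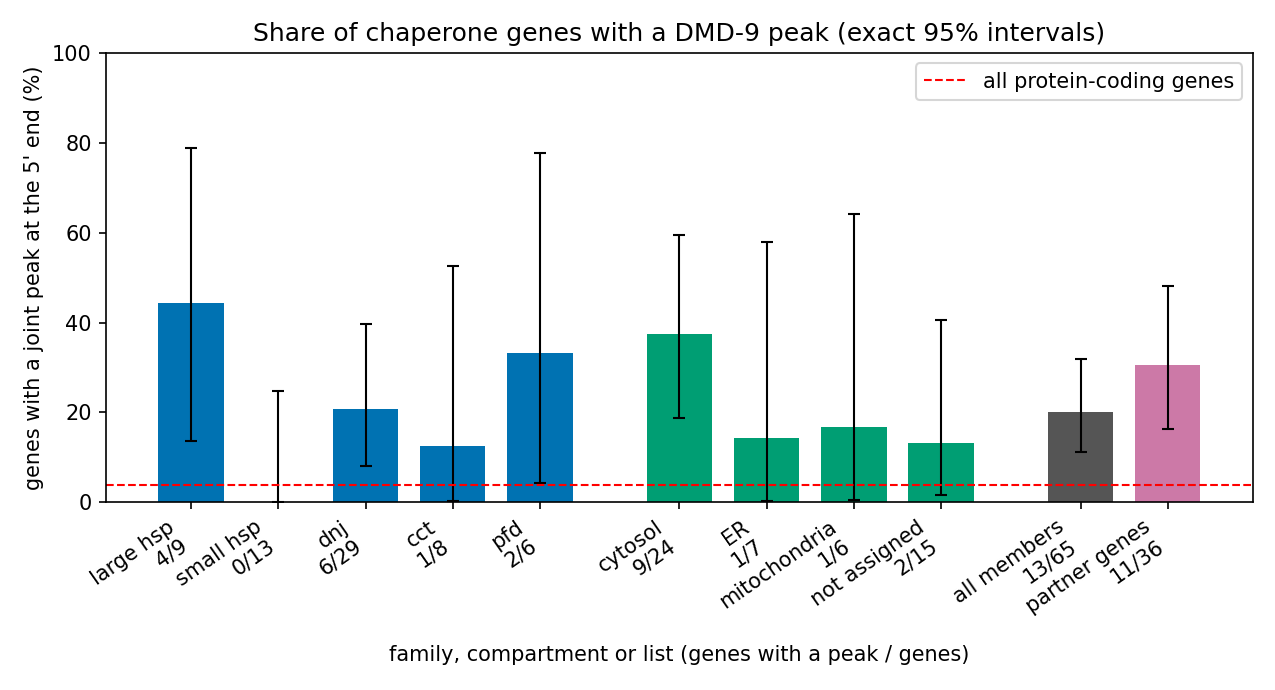
Percent of genes with a joint peak in the 5' end window (bars, with exact 95% intervals as capped lines). Shares are by family, by compartment, over all chaperone genes and over the partner genes. The dashed line is the share over all protein-coding genes of 3.88%. The larger hsp genes were at 44.4% and the small heat shock protein genes at 0, with wide intervals because each group holds few genes.

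Below the threshold most chaperone genes still had some ranked peak, which says little, since 75.6% of all protein-coding genes had one against 83.1% (54 of 65) of the chaperone genes. The strength of the strongest ranked peak, with 0 for a gene with none, had a median of 32.0 over the chaperone genes (quartiles 16.9 and 62.6) and 24.1 over all genes (quartiles 4.78 and 36.3). By subfamily the median was 68.1 for the larger hsp genes, 57.8 for the pfd genes, 29.6 for the dnj genes, 23.8 for the cct genes and 22.6 for the small heat shock protein genes. Above the upper quartile of all genes were 30 of the 65 (46.2%). In the replicates separately, the median over the chaperone genes was 18.3 in replicate 1 and 16.3 in replicate 2, against 7.95 and 9.15 over all genes. Across the 35 chaperone genes with a ranked peak in both replicates, the Spearman correlation of the signals was 0.761 and the Pearson correlation of their log10 values 0.880. At 7 of them a replicate's strongest peak did not overlap the pooled peak, and over the other 28 the correlations were 0.799 and 0.890. These points share the same 2 libraries, and the correlation is given as a description.

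**Figure D3:**
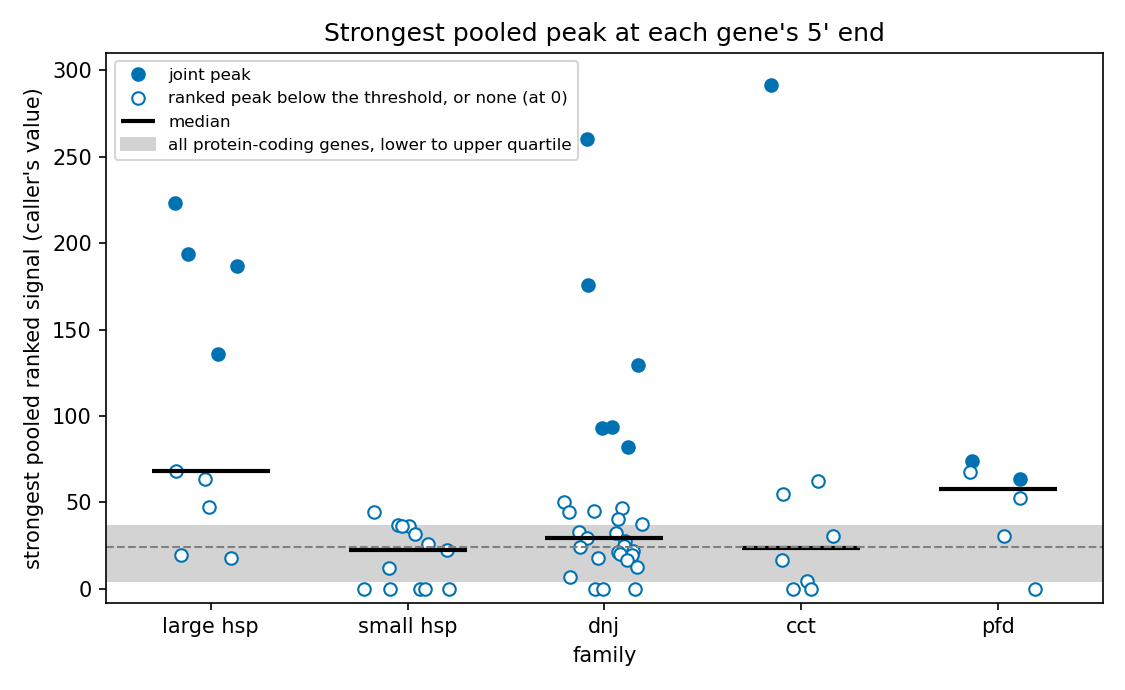
Strongest pooled ranked signal in the 5' end window of every chaperone gene, by subfamily (each point a gene; a gene with no ranked peak is at 0), with genes in the joint list filled and group medians as black lines. The dashed line gives the median of 24.1 and the grey band the lower to upper quartile, 4.78 to 36.3, over all protein-coding genes. The highest chaperone gene without a joint peak is hsp-4 at 68.1.

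Peaks at chaperone genes sat upstream about as often as those of all genes, in a window that reaches 1000 bp upstream and only 200 bp downstream. At 8 of the 13 genes the summit lay in the window of a divergent gene too. Of the 13 summits, 12 were upstream of the 5' end, as were 91.9% (712 of 775) for all genes with a joint peak, and pfd-3 alone had its summit downstream, by 42 bp, in its 5' UTR. The median distance was 236 bp upstream and the farthest 617 bp, against a median of 258 bp for all genes. A second gene's window held the summit in 9 of 13 cases (69.2%, against 50.7%, or 393 of 775, of all genes with a joint peak). The neighbour was divergent in 8 of them and on the same strand in 1, rde-2 beside pfd-6. The neighbour's 5' end was nearer to the summit than the chaperone's in 5 of the 9, namely cct-8, hsp-60, hsp-110, dnj-19 and dnj-14 (neighbour glit-1). The chaperone's was nearer at dnj-28 (neighbour supr-1), dnj-13 (F54D5.9), dnj-12 (mtx-1, a mitochondrial import protein gene) and pfd-6. The peaks of hsp-1, hsp-3, dnj-9 and pfd-3 lay in no other gene's window. If each peak is given to the nearest 5' end alone, 8 chaperone genes keep one, where 2.88% of all genes do.

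Genes with a divergent 5' end within 1000 bp had a joint peak more often in general. Over all genes the share was 8.96% (317 of 3539) with such a neighbour and 2.78% (458 of 16446) without. Among chaperone genes it was 26.7% (8 of 30) and 14.3% (5 of 35). Both chaperone shares were above the share of all genes of the same arrangement, and 30 of 65 chaperone genes had such a neighbour.

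**Figure D4:**
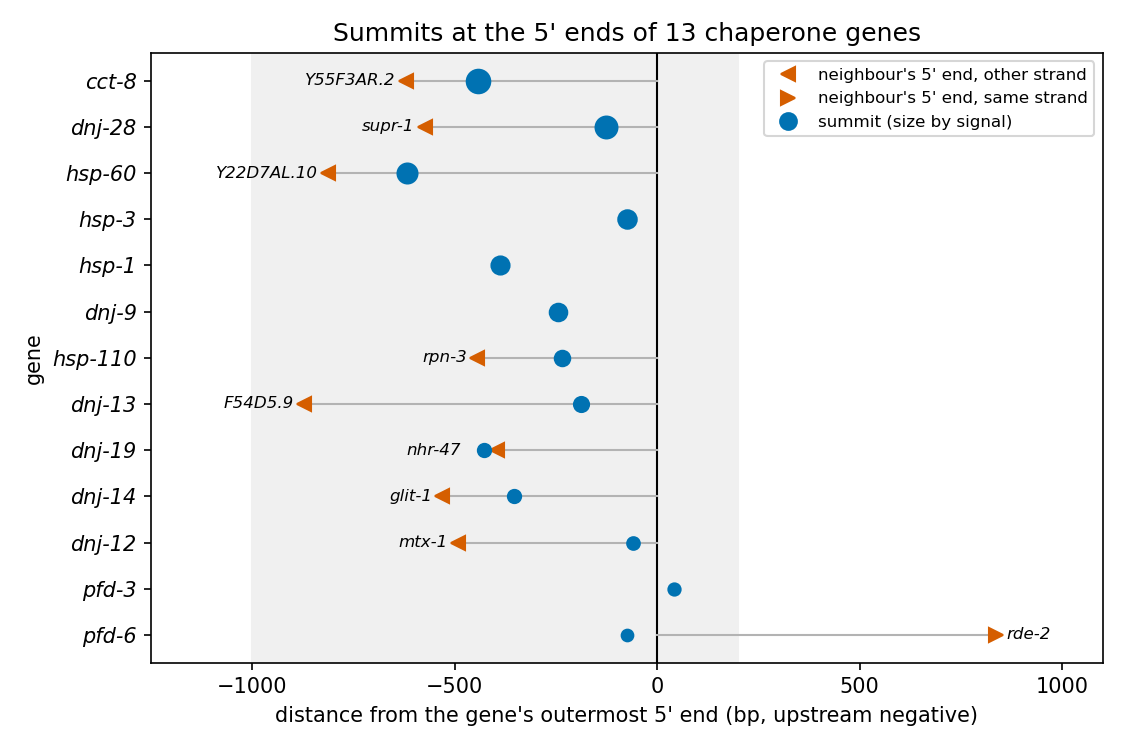
Position of the joint summit relative to the 5' end of each chaperone gene (horizontal axis, bp, upstream negative, with the window from 1000 bp upstream to 200 bp downstream) and the 5' ends of neighbour genes whose windows also hold it; a larger point has a higher joint signal. Of the 13 summits 12 lie upstream, and at cct-8, hsp-60, hsp-110, dnj-19 and dnj-14 the neighbour's 5' end is the nearer.

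The sequences under 7 of the 8 strongest summits are printed to show which hold heat shock element pairs; none is shown for dnj-28. Each is the 101 bases centred on the joint summit, 5' to 3' on the strand of the chaperone gene, from the RefSeq WBcel235 genome. Capitals mark matches to GAANNTTC or TTCNNGAA, the inverted pairs of which heat shock elements are built, and a sequence with no capitals has none. The regions are cct-8 at chrIV:1094313-1094413 (minus strand), hsp-60 at chrIII:1619075-1619175 (plus), hsp-3 at chrX:6092149-6092249 (minus), hsp-1 at chrIV:17278520-17278620 (plus), dnj-9 at chrII:4851760-4851860 (plus), hsp-110 at chrIII:8447095-8447195 (minus) and dnj-13 at chrII:11545463-11545563 (plus).
cct-8: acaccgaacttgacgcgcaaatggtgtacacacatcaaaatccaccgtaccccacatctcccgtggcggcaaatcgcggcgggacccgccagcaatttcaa
hsp-60: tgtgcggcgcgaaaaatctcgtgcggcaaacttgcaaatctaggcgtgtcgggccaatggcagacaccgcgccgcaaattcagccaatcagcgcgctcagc
hsp-3: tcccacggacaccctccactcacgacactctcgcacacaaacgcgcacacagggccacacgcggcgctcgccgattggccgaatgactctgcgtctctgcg
hsp-1: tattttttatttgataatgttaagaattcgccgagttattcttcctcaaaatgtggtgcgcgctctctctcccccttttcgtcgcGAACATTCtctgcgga
dnj-9: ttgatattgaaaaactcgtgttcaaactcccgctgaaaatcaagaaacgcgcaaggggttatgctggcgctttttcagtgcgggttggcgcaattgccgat
hsp-110: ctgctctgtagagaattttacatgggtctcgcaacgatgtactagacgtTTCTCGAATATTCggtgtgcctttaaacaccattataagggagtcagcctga
dnj-13: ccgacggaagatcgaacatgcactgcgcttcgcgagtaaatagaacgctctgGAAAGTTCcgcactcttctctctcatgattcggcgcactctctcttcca

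Pairs of the heat shock element type were found near the summit at several chaperone genes. The pair GAANNTTC, which reads the same on both strands, lay within 50 bp of the summit at 5 of the 13 (38.5%), namely hsp-1, hsp-110, dnj-13, dnj-12 and pfd-3. It was in 6.74% (93 of 1379) of all joint peaks and in 5.69% (34 of 598) of joint peaks in gene windows. The opposite pair TTCNNGAA was at hsp-110 and dnj-12 (15.4%), against 3.92% (54 of 1379) of all joint peaks and 3.51% (21 of 598) of those in gene windows, and both pairs overlap there. Of other motifs, the letters ACATTGT, searched on both strands as the core that DM-domain proteins of other animals bind, were in none of the 13, in 1.52% (21 of 1379) of all joint peaks and in 2.01% (12 of 598) of those in gene windows. GGTTCGA, part of the internal promoter of transfer RNA genes, was in none of the 13, in 7.90% (109 of 1379) of all joint peaks and in 4.35% (26 of 598) of those in gene windows. No summit of the 13 lay within 100 bp of a transfer RNA, snoRNA or snRNA gene. The median GC content of the windows was 52.5%, from 40.6 to 65.3%, against 49.5% for all joint peaks. A match is a run of letters and not a site shown to be used.

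A longer element of 3 alternating GAA units, each separated by 2 bases, was then searched on both strands, a search added after the data had been seen. From 250 bp before to 50 bp after the 5' end it was present at 16.9% (11) of the chaperone genes and 1.98% (395 of 19973) of all genes. It was present at 3 of the 13 genes with a joint peak (dnj-12, hsp-1 and hsp-110) and at 8 of the 52 without (15.4%). The small heat shock protein genes had it in 6 of 13 cases (46.2%) and no joint peak, whereas no cct or pfd gene had it there. These 6, all among the 8, are hsp-16 genes in divergent pairs whose members share the same elements, so they are not separate cases. At the hsp-16.1 and hsp-16.48 genes, whose windows have identical copies, absence of a peak cannot be told apart from loss of reads that map to several places. In the whole window it was present at 5 of the 13 (dnj-12, dnj-13, hsp-1, hsp-110 and hsp-60), at 11 of the 52 (21.2%) and at 7.68% of all genes. Chaperone genes with a joint peak thus held the element more often than all genes did. Those without one did too, but mostly through the hsp-16 genes. These were 6 of the 8 near the 5' end, the others being hsp-70 and hsp-90, and 6 of the 11 in the whole window. The difference between chaperone genes with and without a joint peak was not tested. The distance from the summit was 5 bp at hsp-110, 20 bp at dnj-12, 74 bp at hsp-60, 215 bp at dnj-13 and 251 bp at hsp-1.

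The next sequences are 41 bases around such elements on the gene's strand, with the element in capitals, to set genes with a joint peak beside genes that have the element and no joint peak in the window. From genes with a peak come hsp-60 at chrIII:1619031-1619071 (plus), dnj-13 at chrII:11545278-11545318 (plus) and hsp-110 at chrIII:8447120-8447160 (minus). From genes without come hsp-90 at chrV:14684819-14684859 (plus), hsp-6 at chrV:4827041-4827081 (minus) and hsp-16.2 at chrV:1805155-1805195 (minus).
hsp-60: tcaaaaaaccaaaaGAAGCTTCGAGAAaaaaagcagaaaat
dnj-13: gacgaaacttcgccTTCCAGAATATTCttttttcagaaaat
hsp-110: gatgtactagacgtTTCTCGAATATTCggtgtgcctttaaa
hsp-90: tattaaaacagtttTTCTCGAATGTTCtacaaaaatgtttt
hsp-6: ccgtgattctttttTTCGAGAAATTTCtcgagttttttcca
hsp-16.2: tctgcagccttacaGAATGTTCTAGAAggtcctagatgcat

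Other genes that work with these chaperones were counted from a list of 36 partners. A joint peak lay in the window of 11 (30.6%, exact 95% interval 16.3 to 48.1%), beside 3.88% of all genes. Among 8 HSP90 co-chaperone genes there was 1, ahsa-1, the activator of the HSP90 ATPase. Its joint signal was 149, with 77.9 and 66.5 in the replicates, and the peak lay in the window of C01G10.7 too. Both BAG-domain genes, which encode nucleotide exchange factors of HSP70, had one. The signals were 186 at bag-1 (91.0 and 97.2 in the replicates) and 67.6 at unc-23 (42.7 and 32.8). The bag-1 peak was in both replicates' own thresholded lists and the unc-23 peak in neither. Among 13 further chaperone genes there were 7, of which Y22D7AL.10 is counted by the peak it shares with hsp-60. The divergent pair F44E5.4 and F44E5.5, heat-inducible HSP70-family genes, shared a peak of 300.2 with 143 and 155 in the replicates, above cct-8. This peak stood in contrast to hsp-70, with 19.3 in the ranked list.

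Of the partners of BiP in the endoplasmic reticulum, pdi-6, pdi-3, crt-1 and enpl-1 had a joint peak and cnx-1, pdi-1, pdi-2 and stc-1 did not. The protein disulfide isomerase genes pdi-6 and pdi-3 had 229 (111 and 117 in the replicates) and 112 (67.5 and 37). The calreticulin gene crt-1 had 103 (42.2 and 61.1), and the GRP94 gene enpl-1 had 90.8 (37.9 and 54.1). The pdi-3 peak lay in the window of ubql-1 too, and the enpl-1 peak in that of imp-2. The pooled ranked signal was 69.3 at pdi-2, which had a peak in the conservative list and in replicate 1's own thresholded list. It was 50.7 at the calnexin gene cnx-1 and 40.99 at pdi-1, and stc-1 had no pooled ranked peak. Replicate 1 was the higher at pdi-3 and replicate 2 at crt-1 and enpl-1. The pdi-6 peak was in both replicates' own thresholded lists. Those of crt-1 and enpl-1 were in replicate 2's alone, and that of pdi-3 was in neither. Of 13 stress regulator genes 1 had a joint peak (7.69%, exact 95% interval 0.195 to 36%), where 3.88% of all genes did. It was xbp-1, the transcription factor of the unfolded protein response, with 101 (55.6 and 46.2 in the replicates). That peak was in replicate 1's own thresholded list and not in replicate 2's. The heat shock factor gene hsf-1 had no pooled ranked peak.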

How the data were processed

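The series measured DMD-9 ChIP-seq in 2 biological replicates of L4 larvae. The authors deposited peak lists on ce11, which shares coordinates with WBcel235. For aligner, peak caller and settings: not given in the sources used here. Going by column order and per the file headers, the deposited signal is the caller's value for each peak, not scaled between lists, and the deposited −log10 values are those of the q value and, in ranked lists, the global IDR. Every peak of the authors' joint list had a global IDR of 0.01 or under in the pooled ranked list. The global IDRs printed are from that ranked list, so a peak of another thresholded list, such as that of hsp-90, can exceed 0.01. A control library is named in the labels; neither it nor any reads were analysed, so depth is unknown.

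Peaks were placed by summit against Ensembl release 115 with Python 3.11.15, pandas 2.3.3, numpy 2.4.6 and scipy 1.17.1, and figures were drawn with matplotlib 3.10.9. The placement was tested on simulated data. Shares have exact (Clopper-Pearson) 95% intervals, which cover counting error only. Copies were sought with blastn 2.17.0 at 90% identity over at least 50% of a peak or window. No p-value was computed, since there is 1 group. Compartments and partners were listed from general knowledge, and genes with no certain compartment were left unassigned. The members, lists and rules were chosen with earlier results of these data known, so no count is independent evidence. Named with values were members with a peak in any thresholded list, the 5 next in pooled ranked signal, the BiP, HSP70, HSP90 and mitochondrial genes, all cct and pfd genes, neighbours sharing a peak and partners with a joint peak. Other genes and peaks were named after their values were seen: further dnj, small heat shock protein and regulator genes and peaks outside the windows. Alternatives changed the list, replicate, IDR, q value, 5' end, window, overlap and small RNA peaks.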

Additional observations from a re-analysis of the deposited data

How the results depend on the processing

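The count of 13 chaperone genes, each with its own joint peak, and of 9 that shared it with a neighbour moved by over 1.5 times under 3 of 12 alternatives. A single replicate gave 8 to 9 genes and peaks, 5 to 6 of them shared. A global IDR of 0.001 or under gave 8 genes, 8 peaks and 5 shared. Assignment to the nearest 5' end gave 8 genes, 8 peaks and 0 shared, the last by construction. Under the other settings the genes numbered 10 (q value of 0.05 or under) to 16 (window to 1000 bp downstream). The median strongest ranked signal of 31.95 was 16.31 to 18.31 in a single replicate, whose signals are on a lower scale. It was 36.40 with any transcript 5' end and 24.81 with 500 bp upstream. Over all genes the median was 25.9 with any transcript 5' end and 15.5 with 500 bp upstream, against 24.1 in the main setting. No paired analysis was possible because the series has 1 group. The depth is unknown, so whether cct-6, hsp-4, cct-7 and hsp-90, the chaperone genes with the lowest global IDR above the threshold, would pass with more reads cannot be told.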
